A study of Mus musculus with 15 samples.

Results

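Kupffer cells, the macrophages that reside in the liver, were compared between obese ob/ob mice and wt mice at 14 weeks of age by small RNA sequencing. The comparison rests on 8 of the 15 libraries of the series, chosen by the genotype and age in their titles. wt is C57BL/6J (n = 4), and ob/ob (n = 4) is labelled by that strain name alone. ob/ob mice lack functional leptin and become obese, and the background strain of the mutation is not in the labels used here. The 7 remaining libraries are from 9 weeks and enter only where the difference between the ages was tested. All 248 listed mature miRNAs were examined. The series concerns how liver macrophages affect the antioxidant response in obesity, and the comparison asks which of their miRNAs differ with obesity.

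A miRNA is cut from a hairpin with a 5p and a 3p arm, and 1 of the arms, the guide, is usually kept while the other, the passenger, is mostly lost. Bases 2 to 8 of the mature strand, the seed, pair with target mRNAs, so miRNAs with the same seed can share targets. In macrophages miR-155 and the miR-146 pair are induced by inflammatory signals. miR-155 promotes inflammatory output, and miR-146 dampens the signalling that induces it.

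The mature strands shown first are those that kept their call as deposited whichever single library was left out, with their seeds in capitals, 5′ to 3′ (RefSeq, GRCm38.p6). In ob/ob these 9 were higher.
miR-144-5p: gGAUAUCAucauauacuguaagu
miR-19a-3p: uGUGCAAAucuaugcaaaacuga
miR-582-3p: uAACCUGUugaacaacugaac
miR-210-3p: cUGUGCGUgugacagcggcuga
miR-192-5p: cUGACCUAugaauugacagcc
miR-34a-5p: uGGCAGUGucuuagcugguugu
miR-374b-5p: aUAUAAUAcaaccugcuaagug
miR-31-5p: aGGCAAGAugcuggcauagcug
miR-130b-3p: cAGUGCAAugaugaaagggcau
miR-34c-5p was the tenth of this kind. The 6 miRNAs that were lower on both scales follow, the upper 3 of them called as deposited whichever library was left out.
miR-423-5p: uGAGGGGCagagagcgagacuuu
miR-1964-3p: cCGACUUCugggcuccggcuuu
miR-674-3p: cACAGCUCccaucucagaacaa
let-7d-3p: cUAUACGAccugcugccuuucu
let-7e-3p: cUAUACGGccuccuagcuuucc
miR-671-3p: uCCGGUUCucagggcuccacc
The 9 printed higher strands carry 9 different seeds and the 6 lower strands carry 6. The GC content of the mature strand had a median of 40.9% in the 17 miRNAs with a sequence among the 18 higher on both scales, 55.5% in the 6 lower ones and 45.5% in the 153 tested miRNAs with a sequence. The medians differed with the direction of change. The ranges overlapped, at 27.3 to 63.6% in the higher and 50 to 66.7% in the lower miRNAs. The part of GC content in the calls was tested only through the linear GC correction given beside the results.

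Values are RPM, reads per 1000000 reads, as the authors deposited them. Differences were tested on log2(RPM + 0.5) with limma, Benjamini-Hochberg adjusted over all miRNAs tested, at a threshold of 0.05, so that fold changes of rare miRNAs are understated. The smallest step between low values implied depths of 9.08 to 39.0 M reads (M, 1000000) in wt and 44 to 98.1 M reads in ob/ob. The groups did not overlap in depth (exact permutation p = 0.0286, two-sided), so genotype and depth cannot be told apart. The 248 miRNAs summed to 147387 RPM in wt replicate 1 and to 272978 to 353829 in the other 7 libraries. Calls were therefore made both as deposited and after median-ratio rescaling, and values are as deposited unless named as rescaled. The rescaling divided wt replicate 1 by 0.578 and the other libraries by 0.939 to 1.18. Replicates 1 and 2 of both genotypes were sequenced in lane 1 and replicates 3 and 4 in lane 2. Nothing in the labels says that replicates are separate animals, so p-values reflect the spread of these libraries, possibly a technical one.

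The macrophage label was checked against 3 measured myeloid markers. miR-142a-5p, made in blood cell lineages, was at 1756 to 3906 RPM and miR-511-3p, from the gene of the macrophage mannose receptor, at 77.3 to 183 RPM in every library. miR-142a-3p was listed at 0 in wt replicates 1, 2 and 4, at 0.0844 RPM in wt replicate 3, at 0.159 RPM in ob/ob replicate 1 and at 17.1, 18 and 18.6 RPM in the other ob/ob libraries. Neither of the 2 tested myeloid markers, miR-142a-5p and miR-511-3p, passed on either scale. miR-126a-5p, the endothelial miRNA from a hairpin within Egfl7, was as deposited the most abundant miRNA on average over the groups, at 10086 to 59409 RPM. After rescaling miR-22-3p had the higher mean in both groups. miR-223-3p was not analysed here.

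Higher in the ob/ob libraries were miR-19a-3p, miR-582-3p, the erythroid miR-144-5p, the p53-induced miR-34a-5p and miR-34c-5p, the hypoxia-induced miR-210-3p and the liver miRNA miR-192-5p. The inflammatory miR-155-5p and miR-146b-5p were higher too, less firmly. The calls of both were lost with the GC correction and without some single libraries. Lower were miR-423-5p, miR-1964-3p and miR-674-3p. As deposited, 26 of 171 miRNAs tested passed (15.2%). In ob/ob 20 of them were higher (11.7%) and 6 lower (3.51%), and the median log2 fold change of all tested was 0.20. After rescaling, 48 of 168 passed (28.6%), 26 higher (15.5%) and 22 lower (13.1%). The 24 called in the same direction on both scales (14.0% of 171) were 18 higher (10.5%) and 6 lower (3.51%). All 24 had the same sign in both lanes, although lane 1 alone, with 2 libraries a group, gave a call only for miR-144-5p. As deposited, the groups did not overlap for 23 of the 24, the exception being miR-141-3p. Of all tested miRNAs, the called ones included, 22.2% had every ob/ob library above wt and 5.26% had every one below. After rescaling, the groups of miR-192-5p and miR-31-5p overlapped as well. The 24 were called on these same values, so their separation is no independent support. With lane as a covariate 20 were called on both scales, 19 of them among the 24. Of the 24, 13 kept their call as deposited without any single library. With the GC correction 36 of 150 miRNAs with a sequence passed (24%), 17 higher (11.3%) and 19 lower (12.7%), and 19 of the 23 members of the 24 with a sequence kept their call.

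**Figure D1:**
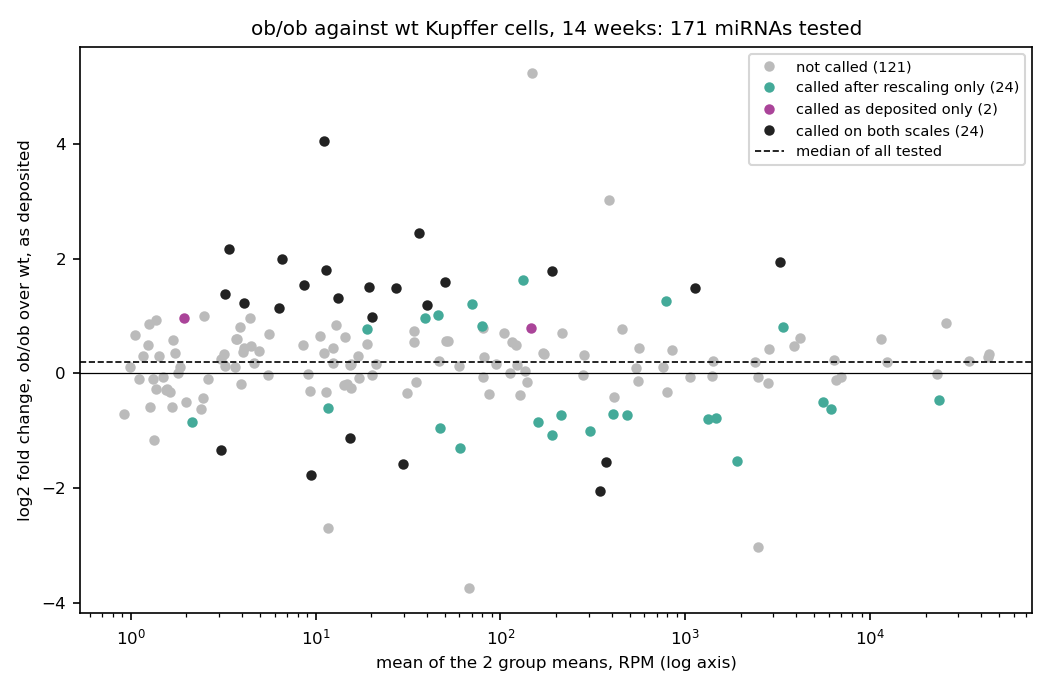
Log2 fold change of ob/ob over wt as deposited (y axis) against the mean of both group means in RPM (x axis, log) for the 171 miRNAs tested, 1 point per miRNA, coloured by call. The 24 miRNAs called on both scales lie far from the dashed median of 0.20, and 24 more, 16 of them lower, were called only after rescaling.

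Of the 24 miRNAs called on both scales, miR-144-5p had the largest log2 fold change. It comes from the hairpin transcribed together with miR-451 in red cell precursors (chromosome 11, 78073010 to 78073032, plus strand). miR-144-5p was at 0.331, 0.974, 0.844 and 0.914 RPM in wt replicates 1 to 4 and at 11.6, 32.4, 18.4 and 23.3 RPM in ob/ob replicates 1 to 4. Every ob/ob library was far above every wt library. The log2 fold change was 4.06 ± 0.35 (SE, limma adjusted p = 0.000108), 4.17 in lane 1 and 3.94 in lane 2. It was under 1 RPM in every wt library, as no other tested miRNA was, and passed the filter through the ob/ob libraries only. Of 7 erythroid markers it was the 1 measured, and the other 6, miR-451a among them, were not analysed here.

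miR-192-5p (chromosome 19, 6264857 to 6264877, plus strand), abundant in liver and gut epithelium, was at 1482, 1277, 983 and 1524 RPM in wt and at 2936, 5762, 5521 and 6628 RPM in ob/ob. ob/ob replicate 1 lay between wt and the other ob/ob libraries. The log2 fold change was 1.94 ± 0.30 (limma adjusted p = 0.00256) and 1.72 ± 0.39 after rescaling (adjusted p = 0.0104), and by lane as deposited it was 1.58 in lane 1 and 2.30 in lane 2. miR-194-5p, transcribed with miR-192, was at 105, 118, 100.2 and 108 RPM in wt and 183, 179, 195 and 191 RPM in ob/ob, a narrow spread in both groups. Its log2 fold change was 0.79 ± 0.22 as deposited (limma adjusted p = 0.0352), and the call ended after rescaling (0.58 ± 0.25, adjusted p = 0.120). The summed hepatocyte markers, 7 measured of 9, lay at 1155 to 1739 RPM in wt and 3298 to 6951 RPM in ob/ob. Most of each sum was miR-192-5p, itself at 983 to 1524 RPM in wt and 2936 to 6628 RPM in ob/ob, so the sums largely repeat its values. The defining hepatocyte miRNA, miR-122-5p, was at 101, 20.2, 15.2 and 50.6 RPM in wt and at 48.8, 36.9, 54.3 and 79.4 RPM in ob/ob, overlapping ranges (log2 fold change 0.57 ± 0.55, limma adjusted p = 0.551). Whether fewer or more cells of a type, or a different amount of RNA per cell, underlies such values cannot be told apart in bulk samples.

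miR-215-5p shares its seed with miR-192-5p and differs from it elsewhere in the strand.
miR-192-5p: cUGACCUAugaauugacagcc
miR-215-5p: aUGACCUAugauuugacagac
miR-215-5p was at 14.5, 47.0, 55.6 and 56.1 RPM in wt and at 127, 132, 74.8 and 50.9 RPM in ob/ob. The groups overlapped through ob/ob replicate 4, with log2 fold changes of 2.28 in lane 1 and 0.14 in lane 2. It passed after rescaling (1.0 ± 0.32, limma adjusted p = 0.0457) and not as deposited (1.21 ± 0.49, adjusted p = 0.117), and the rescaled call was lost without 7 of the 8 libraries taken singly (adjusted p up to 0.132).

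Of the 3 tested members of the hypoxia and p53 list all rose, each on both scales, where 10.5% of all tested miRNAs did. The list joins hypoxia and p53 miRNAs, and 4 of its 8 members were measured. It was chosen with earlier results of these data known, so the count is no test of either pathway. miR-210-3p, induced by hypoxia through HIF, was at 1.76, 3.23, 2.49 and 1.87 RPM in wt and 7.86, 9.37, 11.2 and 15 RPM in ob/ob (chromosome 7, 141221407 to 141221428, minus strand). All ob/ob libraries lay well above the highest wt library, and the log2 fold change was 1.99 ± 0.29 (limma adjusted p = 0.00256). miR-34a-5p, a direct target of p53, was at 3.19, 4.84, 4.98 and 6.03 RPM in wt and 13.5, 16.9, 17.3 and 24.3 RPM in ob/ob (chromosome 4, 150068473 to 150068494, plus strand). Its log2 fold change was 1.81 ± 0.28 (limma adjusted p = 0.00256) and 1.81 in each lane. miR-34c-5p, from another hairpin of the same family, was at 0.991, 2.13, 1.65 and 1.5 RPM in wt and at 5.54, 5.95, 4.91 and 3.22 RPM in ob/ob. It was low in all libraries, yet the groups did not overlap (1.39 ± 0.28, limma adjusted p = 0.00858).

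Inflammation-induced miRNAs gave 2 higher and 0 lower of 9 tested, on both scales (against 10.5% higher on both scales among all tested), with a list median log2 fold change of 0.40 against 0.20 over all tested. miR-155-5p (chromosome 16, 84714143 to 84714165, plus strand, in an exon of Mir155hg) was at 5.84, 12, 7.38 and 4.99 RPM in wt and 21.8, 23.4, 16.2 and 14.2 RPM in ob/ob. The highest wt library stayed just under the lowest ob/ob library. The log2 fold change was 1.31 ± 0.32 (limma adjusted p = 0.0201), and the call was lost when wt replicate 3, wt replicate 4, ob/ob replicate 2 or ob/ob replicate 3 was left out (adjusted p up to 0.0845) and with the GC correction (0.66, adjusted p = 0.141). miR-21a-5p, abundant in activated myeloid cells, was at 13315, 19487, 19190.0 and 20004 RPM in wt and 21824, 32098, 43352 and 37666 RPM in ob/ob. As deposited its groups did not overlap either, and its log2 fold change of 0.88 ± 0.27 missed the threshold (limma adjusted p = 0.0535, and 0.0776 rescaled). After rescaling the groups overlapped, with wt replicate 1 at 23055.5 RPM above ob/ob replicate 1 at 18503 RPM. The rescaled log2 fold change of miR-21a-5p was 0.20 in lane 1 and 1.12 in lane 2.

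The miR-146 strands share their first 17 bases, differ at 2 later positions and come from different chromosomes, 19 for miR-146b and 11 for miR-146a. They are shown because miR-146b-5p passed the test and its more abundant paralogue did not.
miR-146b-5p: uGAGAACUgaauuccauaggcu
miR-146a-5p: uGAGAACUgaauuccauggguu
miR-146b-5p was at 100.2, 52.9, 53.0 and 140.4 RPM in wt and at 205, 226, 249 and 495 RPM in ob/ob, where replicate 4 stood far above the other ob/ob libraries. Its log2 fold change was 1.79 ± 0.42 (limma adjusted p = 0.0175), and the call ended without wt replicate 3 or ob/ob replicate 3 (adjusted p up to 0.0593) and with the GC correction (1.36, adjusted p = 0.0942). The rescaled call (1.57 ± 0.52, limma adjusted p = 0.0488) ended without 7 of the 8 libraries taken singly (adjusted p up to 0.125) and with lane as a covariate (0.0621). miR-146a-5p was at 1301, 756, 911 and 2513 RPM in wt and at 1365, 1063, 1781 and 1577 RPM in ob/ob, with wt replicate 4 the highest of all (0.21 ± 0.38, limma adjusted p = 0.762). The difference between the paralogues themselves was not tested, and the sources used here do not give how reads shared by such close strands were assigned.

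miR-19a-3p, of the oncogenic miR-17-92 cluster (chromosome 14, 115044048 to 115044070, plus strand, in an exon of Mir17hg), was at 6.61, 13.6, 9.53 and 12.6 RPM in wt and 32.4, 96.0, 52.7 and 68.2 RPM in ob/ob. The lowest ob/ob library was well above the highest wt library, and the log2 fold change was 2.45 ± 0.37 (limma adjusted p = 0.00256), near equal in lane 1 (2.49) and lane 2 (2.40). miR-92a-3p, cut from the same transcript 428 bases away and also from a paralogous cluster, was at 2372, 2951, 3186 and 3354 RPM in wt and 3279, 2277, 2379 and 2686 RPM in ob/ob. It did not pass (-0.16 ± 0.23, limma adjusted p = 0.693), and its neighbour miR-20a-5p was listed at 0 in all libraries but wt replicate 1 (14.5 RPM) and ob/ob replicate 4 (55.1 RPM), a value chosen after it was seen. Of 24 members of miR-17-92 and its paralogues, 6 were measured and 3 tested. Of these 1 rose on both scales, where 10.5% of all tested miRNAs did, so the count is no result about the cluster. miR-93-5p, the third tested, was listed at 0 in wt replicate 2 beside 234 to 384 RPM in the other wt libraries and 470.5 to 558 RPM in ob/ob (3.03 ± 2.20, limma adjusted p = 0.415).

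**Figure D2:**
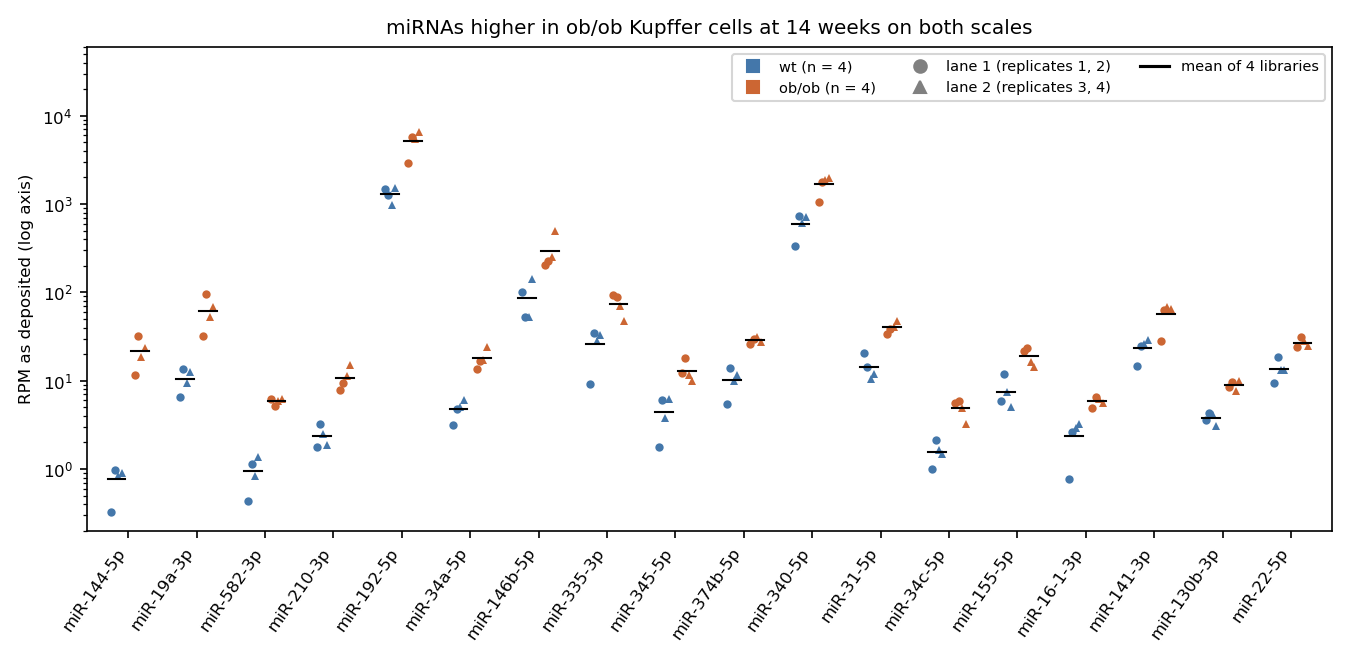
RPM as deposited (y axis, log) in each library for the 18 miRNAs higher in ob/ob on both scales, ordered by fold change, wt blue and ob/ob orange, circles lane 1, triangles lane 2, bars the mean of 4 libraries. All but miR-141-3p separate the groups, and miR-192-5p and miR-340-5p are by far the most abundant.

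The other 4 rises that kept their call as deposited without any single library follow. miR-582-3p, from an intron of the phosphodiesterase gene Pde4d (chromosome 13, 109324790 to 109324810, plus strand), was at 0.440, 1.13, 0.844 and 1.37 RPM in wt and 6.29, 5.15, 5.83 and 6.17 RPM in ob/ob. The ob/ob libraries agreed within a coefficient of variation of 8.73%, and the log2 fold change was 2.18 ± 0.26 (limma adjusted p = 0.000973). miR-374b-5p, from an intron of the X-linked non-coding gene Ftx (chromosome X, 103573112 to 103573133, minus strand), was at 5.51, 14, 9.91 and 11.7 RPM in wt and 26.2, 29.7, 31.1 and 27.5 RPM in ob/ob (1.5 ± 0.30, limma adjusted p = 0.00858). Here wt replicate 1 was the lowest, and after rescaling the error fell while the call stayed (1.3 ± 0.18, adjusted p = 0.00207). miR-130b-3p, from an intron of 2610318N02Rik (chromosome 16, 17124071 to 17124092, minus strand), was at 3.63, 4.28, 4.13 and 3.03 RPM in wt and 8.47, 9.60, 7.73 and 9.88 RPM in ob/ob (1.14 ± 0.24, limma adjusted p = 0.0101). miR-31-5p, from an exon of AL805899.1 (chromosome 4, 88910614 to 88910635, minus strand), was at 20.7, 14.2, 10.4 and 11.9 RPM in wt and 33.6, 38.8, 40.9 and 47.3 RPM in ob/ob (1.49 ± 0.27, limma adjusted p = 0.00579). By lane its log2 fold change was 1.05 in lane 1 and 1.94 in lane 2. As deposited, both miRNAs separated the groups. Their rescaled calls were less firm. That of miR-130b-3p (0.94 ± 0.27, limma adjusted p = 0.0335) was lost without 6 of the 8 libraries taken singly (adjusted p up to 0.0907). That of miR-31-5p (1.28 ± 0.40, limma adjusted p = 0.0457), whose groups overlapped on that scale, was lost without 7 of the 8 (up to 0.125) and with lane as a covariate (0.0556).

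The remaining 6 rises each lost the call without at least 1 library. miR-335-3p, from an intron of the imprinted gene Mest, was at 9.25 to 35.1 RPM in wt and 47.0 to 93.1 RPM in ob/ob (log2 fold change 1.59 ± 0.44, limma adjusted p = 0.0352, up to 0.117 without a library). miR-345-5p was at 1.76 to 6.15 RPM in wt and 9.92 to 18.1 RPM in ob/ob (1.54 ± 0.38, adjusted p = 0.0240, up to 0.0878). miR-16-1-3p, the passenger arm of a miR-16 hairpin in an intron of Dleu2, was at 0.771 to 3.20 RPM in wt and 4.88 to 6.61 RPM in ob/ob (1.24 ± 0.36, adjusted p = 0.0442, up to 0.131). These 3 separated the groups, with the lowest wt value in replicate 1 each time. miR-141-3p, an epithelial miRNA reported to target Keap1, was at 14.5, 24.6, 26.0 and 28.8 RPM in wt and at 27.9, 63.9, 68.5 and 64.7 RPM in ob/ob, where replicate 1 fell inside the wt range. Its call (1.20 ± 0.36, adjusted p = 0.0495) was lost without any library but ob/ob replicate 1, with adjusted p up to 0.151, and with the GC correction (adjusted p = 0.0830). miR-22-5p and miR-340-5p, each an arm whose partner did not pass, are described with the arm ratios. miR-592-5p was called as deposited only (0.96 ± 0.25, adjusted p = 0.0306, and 0.0560 rescaled), at 0.928 to 1.59 RPM in wt and 2.17 to 3.94 RPM in ob/ob.

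The 6 falls were of abundant and rare miRNAs alike, and ob/ob replicate 1 was the highest ob/ob library for each. miR-423-5p lies in an Nsrp1 intron (chromosome 11, 77078122 to 77078144, minus strand). It was at 562, 461, 588 and 577 RPM in wt and at 277, 76.2, 116 and 118 RPM in ob/ob. The log2 fold change was -2.06 ± 0.38 (limma adjusted p = 0.00631), larger still after rescaling (-2.27 ± 0.41) and seen in lane 1 (-1.80) and lane 2 (-2.31). miR-1964-3p, from an intron of the zinc finger gene Zfp84 (chromosome 7, 29773344 to 29773365, plus strand), was at 12.3, 12.8, 16.5 and 17.7 RPM in wt and 6.31, 2.90, 3.75 and 3.36 RPM in ob/ob (-1.78 ± 0.29, limma adjusted p = 0.00301). miR-674-3p (chromosome 2, 117185186 to 117185207, plus strand) was at 50.2, 45.5, 44.2 and 37.8 RPM in wt and 22.6, 9.72, 15.1 and 12.9 RPM in ob/ob (-1.58 ± 0.29, limma adjusted p = 0.00579). In these 3 the lowest wt library stayed well above the highest ob/ob library.

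Of the 6 tested let-7 passenger arms, 2 were among the falls, where 3.51% of all tested miRNAs fell on both scales. let-7d-3p (chromosome 13, 48536024 to 48536045, minus strand) was at 405, 517, 679.7 and 607 RPM in wt and 317, 141, 173 and 155 RPM in ob/ob (log2 fold change -1.54 ± 0.33, limma adjusted p = 0.0119). Its call ended without ob/ob replicate 3 (adjusted p = 0.0542). let-7e-3p (chromosome 17, 17830411 to 17830432, plus strand, in an intron of Spaca6) was at 2.75, 4.67, 5.40 and 5.57 RPM in wt and 2.50, 1.68, 1.66 and 0.524 RPM in ob/ob (-1.34 ± 0.37, limma adjusted p = 0.0352). The lowest wt and the highest ob/ob library of let-7e-3p nearly touched, and the call was lost without replicate 2, 3 or 4 of either genotype (adjusted p up to 0.0925). miR-671-3p, from an exon of Chpf2 (chromosome 5, 24592171 to 24592191, plus strand), was at 19.4 to 22.3 RPM in wt and 7.43 to 13.7 RPM in ob/ob (-1.13 ± 0.25, limma adjusted p = 0.0141, up to 0.0554 without a library).

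**Figure D3:**
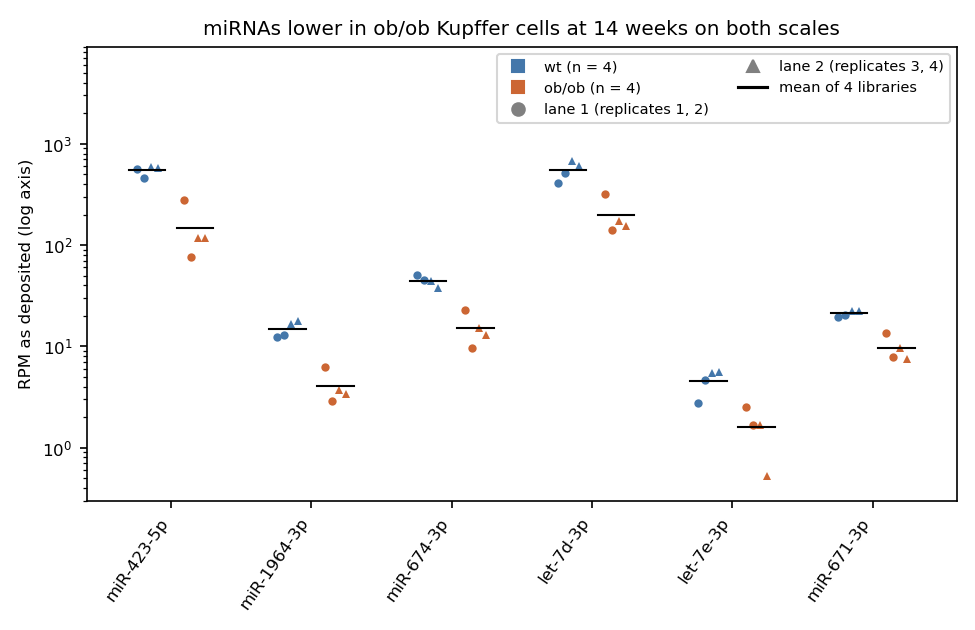
RPM as deposited (y axis, log) in each library for the 6 miRNAs lower in ob/ob on both scales, wt blue and ob/ob orange, circles lane 1, triangles lane 2, bars the mean of 4 libraries. In each of the 6, the highest ob/ob point is replicate 1 and lies below every wt point.

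Guide arms of 3 seed families are shown on the rescaled values. The families were picked for display after their values were seen. The guide arms of let-7, which restrain growth and are among the most abundant miRNAs of mature cells, all carry the same seed and differ further along the strand.
let-7a-5p: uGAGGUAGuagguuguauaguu
let-7c-5p: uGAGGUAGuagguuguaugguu
let-7d-5p: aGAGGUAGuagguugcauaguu
let-7g-5p: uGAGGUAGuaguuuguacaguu
let-7i-5p: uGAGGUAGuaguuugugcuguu
miR-98-5p: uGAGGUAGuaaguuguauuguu
Of the 9 guide arms tested, 0 passed as deposited, and rescaled values gave 6 that were lower (let-7a, let-7b, let-7c, let-7d, let-7e and let-7f), against 13.1% of all tested lower on that scale. let-7d-5p was at 1833, 1554, 1935 and 1583 rescaled RPM in wt and at 1111, 667, 884 and 793 in ob/ob. Its groups were well apart (rescaled log2 fold change -1.02 ± 0.19, limma adjusted p = 0.00507). let-7a-5p was at 6920, 5607, 6654 and 7569 rescaled RPM in wt and at 4553, 3282, 4269 and 4155 in ob/ob (-0.72 ± 0.16, limma adjusted p = 0.0102), again without overlap. The rescaled log2 fold change of let-7c-5p was -0.30 in lane 1 and -1.39 in lane 2, that of let-7b-5p -0.44 and -1.47, that of let-7a-5p -0.69 and -0.76 and that of let-7d-5p -0.97 and -1.07. Differences between lanes were not tested. The calls of let-7a-5p and let-7d-5p held without any single library. Those of let-7b-5p and let-7c-5p were lost without any of 4 libraries, that of let-7e-5p without any of 6 and that of let-7f-5p without any of 5 (limma adjusted p up to 0.129). The groups of let-7e-5p and let-7f-5p overlapped, and let-7e-5p missed the threshold with lane as a covariate (adjusted p = 0.0556). let-7i-5p (0.27 ± 0.14, limma adjusted p = 0.219), let-7g-5p (-0.02 ± 0.15, adjusted p = 0.931) and miR-98-5p (0.55 ± 0.25, adjusted p = 0.150) did not pass. Whether those 3 differ from the other 6 was not tested.

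The 3 strands with the miR-125 seed were all lower after rescaling, where 13.1% of all tested miRNAs were, and none passed as deposited.
miR-125a-5p: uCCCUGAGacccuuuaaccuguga
miR-125b-5p: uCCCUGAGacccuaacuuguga
miR-351-5p: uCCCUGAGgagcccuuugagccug
miR-125a-5p was at 2304, 3417, 3407 and 1955 rescaled RPM in wt and 1390, 1020, 719 and 409 in ob/ob (rescaled log2 fold change -1.74 ± 0.37, limma adjusted p = 0.00794, and 0.0674 as deposited). It lies 406 bases from let-7e-3p on chromosome 17, and all 3 tested members of that cluster were lower after rescaling, 1 of them also as deposited. miR-351-5p, on the X chromosome, was at 237 to 278 rescaled RPM in wt and 65.5 to 180.2 in ob/ob (-1.28 ± 0.29, limma adjusted p = 0.0108). miR-125b-5p was at 163 to 231 in wt and 50.9 to 173 in ob/ob (-1.06 ± 0.34, adjusted p = 0.0457). Its groups overlapped and its call was lost without any of 6 libraries (adjusted p up to 0.112), and with the GC correction neither of the latter 2 passed. In all 3 the rescaled log2 fold change was further below 0 in lane 2, as for miR-125a-5p with -1.24 in lane 1 and -2.25 in lane 2.

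Of the 3 miR-30 strands shown, which share a seed, 1 rose and 1 fell after rescaling. miR-30b-5p was tested too but had no matched sequence and is not shown.
miR-30a-5p: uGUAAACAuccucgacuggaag
miR-30c-5p: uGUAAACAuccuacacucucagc
miR-30e-5p: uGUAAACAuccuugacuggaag
miR-30e-5p was at 2418, 2608, 2508 and 2592 rescaled RPM in wt and at 3124, 3828, 3798 and 4638 in ob/ob (rescaled log2 fold change 0.59 ± 0.15, limma adjusted p = 0.0192). miR-30c-5p was at 1858, 2028, 2042 and 1563 in wt and at 1407, 876, 889.9 and 699 in ob/ob (-0.99 ± 0.22, limma adjusted p = 0.0104). miR-30a-5p did not pass (0.02 ± 0.16, limma adjusted p = 0.950). Neither call was made as deposited (adjusted p = 0.0866 and 0.164), and that of miR-30e-5p ended with the GC correction (adjusted p = 0.0612) and without any of 4 libraries (up to 0.0689).

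**Figure D4:**
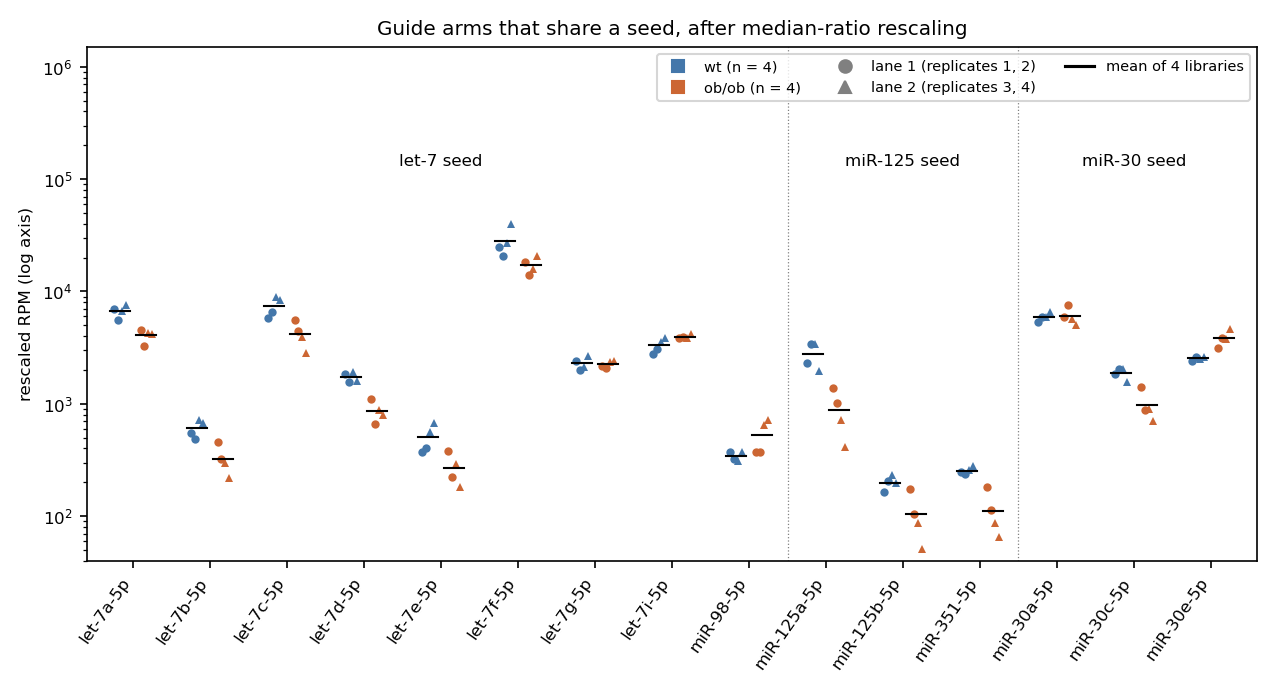
Rescaled RPM (y axis, log) in each library for guide arms with a matched sequence that share the let-7, miR-125 or miR-30 seed, wt blue and ob/ob orange, circles lane 1, triangles lane 2, bars the mean of 4 libraries. The let-7a to let-7f means lie lower in ob/ob, with overlapping points for let-7e and let-7f, and miR-30c-5p and miR-30e-5p lie on opposite sides.

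The ratio of the 5p to the 3p arm of a hairpin was taken within each library as deposited, with the 0.5 RPM added to both arms, so that scaling can still move it where an arm is rare. Of 41 hairpins with both arms tested, 15 shifted (36.6%), 8 towards the 5p arm (19.5%) and 7 towards the 3p arm (17.1%). In lane 1 alone 0 passed and in lane 2 alone 12 did, and without ob/ob replicate 3 the count was 8. The arms of 3 of the hairpins that moved are shown.
miR-340-5p: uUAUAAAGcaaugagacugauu
miR-340-3p: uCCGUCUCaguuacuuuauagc
miR-423-5p: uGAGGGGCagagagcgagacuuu
miR-423-3p: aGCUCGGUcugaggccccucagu
let-7d-5p: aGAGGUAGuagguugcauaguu
let-7d-3p: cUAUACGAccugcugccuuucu
miR-340 lies in an intron of Rnf130 on chromosome 11. Its log2 ratio of 5p to 3p was 4.71, 4.78, 4.82 and 4.95 in wt and 5.61, 6.68, 6.51 and 6.58 in ob/ob, a difference of 1.53 ± 0.24 (limma adjusted p = 0.00126). The shift came with more miR-340-5p, at 338, 726, 617 and 716 RPM in wt and 1047, 1776, 1875 and 1999 RPM in ob/ob (log2 fold change 1.5 ± 0.33, adjusted p = 0.0141). miR-340-3p stayed at 12.4 to 26.0 RPM in wt and 16.8 to 21.0 RPM in ob/ob (-0.03 ± 0.28, adjusted p = 0.954). The call of miR-340-5p was lost with the GC correction (0.55, adjusted p = 0.0612) and when ob/ob replicate 2 or ob/ob replicate 3 was left out (up to 0.0544).

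The arms of miR-423 both lay lower in ob/ob, the 5p arm more so. The log2 ratio was 0.94, 0.14, 0.29 and 0.46 in wt and -0.01, -0.79, -0.81 and -0.78 in ob/ob, so the 5p arm led in wt and the 3p arm in ob/ob (difference -1.06 ± 0.24, limma adjusted p = 0.00721). miR-423-3p itself was at 292, 418, 482 and 419 RPM in wt and at 279.7, 132, 204 and 203 RPM in ob/ob (log2 fold change -1.0 ± 0.31, adjusted p = 0.0535, and 0.00760 rescaled). For let-7d the guide arm gained on its passenger, with log2 ratios of 1.39 to 1.79 in wt and 2.05 to 2.58 in ob/ob (0.74 ± 0.17, adjusted p = 0.00721). Both arms of let-7d were lower after rescaling, the 3p arm more so.

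Other ratios that shifted towards the 5p arm were those of miR-185 (1.19 ± 0.29), miR-195a (0.97 ± 0.31), miR-152 (0.87 ± 0.31), miR-450b (0.85 ± 0.28), miR-22 (0.70 ± 0.19) and miR-30e (0.68 ± 0.19). Of these, only miR-185 passed whichever single library was left out. The limma adjusted p without 1 library reached 0.0855 for miR-195a, 0.110 for miR-152, 0.0959 for miR-450b, 0.0955 for miR-22 and 0.0546 for miR-30e. For miR-22 the 5p arm is the passenger, at 9.47, 18.3, 13.2 and 13.3 RPM in wt and 24, 31, 28.1 and 24.8 RPM in ob/ob (log2 fold change 0.99 ± 0.26, limma adjusted p = 0.0301). The guide miR-22-3p, among the 5 most abundant miRNAs, was at 27036 to 45669 RPM in wt and 42728 to 54121 RPM in ob/ob and did not pass (0.29 ± 0.24, limma adjusted p = 0.448). Towards the 3p arm shifted miR-125b-2 (-1.29 ± 0.37), miR-16-1 (-1.04 ± 0.21), miR-125b-1 (-1.03 ± 0.34), miR-26a-2 (-0.93 ± 0.19), let-7c-2 (-0.75 ± 0.19) and let-7a-1 (-0.62 ± 0.23), besides miR-423. The 5p strand of these 6 is made from more than 1 locus, so each ratio compares the guide of all loci with a passenger. Without 1 library the limma adjusted p reached 0.0651 for miR-125b-2, 0.0914 for miR-125b-1 and 0.119 for let-7a-1. It stayed under 0.05 for miR-16-1, miR-26a-2, let-7c-2 and miR-423. let-7a-1-3p and let-7c-2-3p have the same mature sequence, and reads of that strand cannot be given to 1 of the 2 loci. miR-16-5p itself was at 7057 to 13518 RPM in wt and 11440 to 14450 RPM in ob/ob and did not pass (0.20 ± 0.26, limma adjusted p = 0.693).

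**Figure D5:**
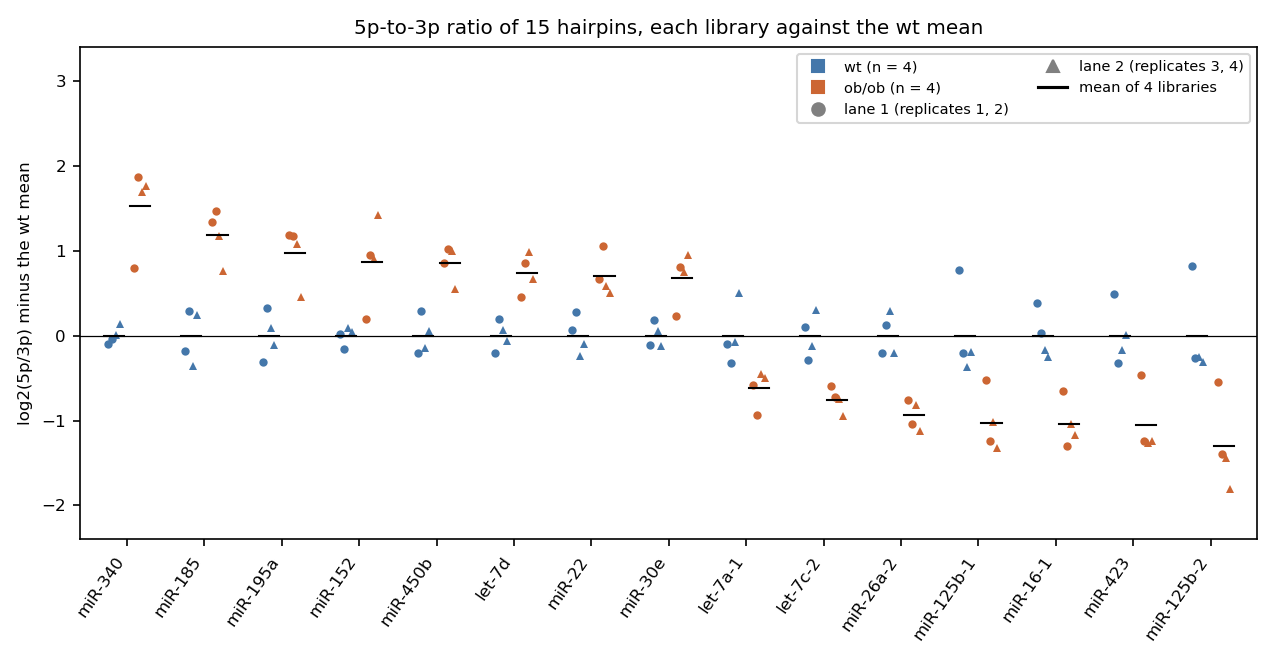
Log2 ratio of the 5p to the 3p arm minus the wt mean of that hairpin (y axis) in each library for the 15 hairpins that passed, wt blue and ob/ob orange, circles lane 1, triangles lane 2, bars the mean of 4 libraries. miR-340 shows the largest shift, 1.53, and its ob/ob replicate 1 lies nearest to wt, as it does for miR-423.

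The lists of other cell types and pathways were read against the 11.7% of all tested miRNAs that rose as deposited and the 15.5% that rose after rescaling. As deposited, 2 of 4 hepatocyte markers, 0 of 2 myeloid, 0 of 2 endothelial, 0 of 6 stellate or mesenchymal, 0 of 3 lymphocyte and 1 of 4 biliary or epithelial markers tested rose, and 0 fell. After rescaling the counts of rises were the same, with miR-215-5p in the place of miR-194-5p, except for 1 stellate marker, miR-143-3p (462 ± 212 RPM in wt and 1104 ± 480.3 in ob/ob, SD, n = 4, limma adjusted p = 0.0749 as deposited and 0.0488 rescaled). The rescaled groups of miR-143-3p overlapped, with wt replicate 4 at 669 RPM above ob/ob replicate 1 at 495 RPM. When 1 library was dropped, its rescaled call held only for wt replicate 4 and ob/ob replicate 1 (limma adjusted p otherwise up to 0.132). With lane as a covariate that call missed the threshold (adjusted p = 0.0583). The summed stellate markers lay at 496 to 1865 RPM in wt and 1559 to 3011 RPM in ob/ob, and the summed endothelial markers at 10833 to 63153 and 33631 to 55779 RPM. The lymphocyte sums overlapped widely (5076 to 8208 and 5752 to 7983 RPM), as did the myeloid sums (1833 to 2917 and 2386 to 4026 RPM). The part of other cell types in the results was not tested. Of 12 lipid and insulin miRNAs tested, 2 rose as deposited, miR-335-3p and miR-34a-5p. On the rescaled values 4 rose and 1 fell. Of the 4 reported to target Nfe2l2, the antioxidant regulator, 1 rose, miR-34a-5p, and of the 2 reported to target its inhibitor Keap1, 1 rose, miR-141-3p. miR-142a-5p (0.43 ± 0.26, limma adjusted p = 0.306) and miR-27b-3p (0.61 ± 0.44, adjusted p = 0.396), both in the Nfe2l2 list, did not pass.

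Among family and cluster lists, 0 of 5 miR-29, 0 of 9 miR-30, 0 of 3 miR-23, miR-27 and miR-24 and 0 of 5 Dlk1-Dio3 miRNAs passed as deposited. After rescaling 1 miR-29 and 1 miR-30 member rose and 2 miR-30 members fell. Of 6 tested let-7 passenger arms 2 fell on both scales (3.51% of all tested did), let-7d-3p and let-7e-3p, around a list median of 0.12 as deposited. Of the 6, 4 had a log2 fold change above 0 as deposited and 2 after rescaling. miR-29b-3p, a repressor of collagen genes, was at 18, 35.9, 36.2 and 31.4 RPM in wt and 40.3, 68.3, 72 and 64.5 RPM in ob/ob. Its groups did not overlap, and it passed after rescaling only (log2 fold change 0.80 ± 0.23, limma adjusted p = 0.0322, and 0.0535 as deposited) and the GC correction ended that call (adjusted p = 0.174), as did leaving out any of 7 libraries (up to 0.101). miR-199a-3p and miR-199b-3p have the same mature sequence, and their sum was 951 ± 465 RPM in wt and 948 ± 367 RPM in ob/ob (SD, n = 4).

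The comparison of wt and ob/ob at 9 weeks used other libraries, all from lane 2. There 37.4% of 179 tested miRNAs passed as deposited, 9 of them higher (5.03%) and 58 lower (32.4%). On rescaled values 21.5% of 177 passed, 20 higher (11.3%) and 18 lower (10.2%). As deposited, 7 of the 20 miRNAs higher at 14 weeks were also higher at 9 weeks (7 of 9 there), and 6 of 6 lower were also lower at 9 weeks (6 of 58 there). After rescaling, 12 of 26 higher (12 of 20 there) and 12 of 22 lower (12 of 18 there) were shared. The log2 fold changes of 168 miRNAs tested at both ages correlated with Pearson's r of 0.721, a description across miRNAs, which share libraries and are not independent. The ob/ob effect differed between the ages for 3 of 180 miRNAs as deposited (1.67%), each larger at 14 weeks, and for 0 of 178 after rescaling, where 15 had an unadjusted p under 0.05 by limma. miR-19a-3p was at 12.6 ± 3.22 RPM in wt (n = 4) and 17.3 ± 1.74 RPM in ob/ob (n = 3) at 9 weeks, and the difference of its log2 fold changes, 2.45 at 14 weeks and 0.48 at 9 weeks, was 1.97 ± 0.47 (limma adjusted p = 0.0472, and 0.291 rescaled). miR-188-5p and miR-138-5p fell at 9 weeks (-2.14 and -1.52) and did not pass at 14 weeks (0.66 and 0.44), with differences of 2.80 ± 0.64 and 1.96 ± 0.46 (limma adjusted p = 0.0472 each, and 0.168 and 0.291 rescaled). None of the 3 passed when wt replicate 1, wt replicate 4, ob/ob replicate 2 or ob/ob replicate 3 of 14 weeks was left out.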

How the data were processed

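Per the labels' protocols, small RNA was purified with the miRNeasy kit, TruSeq Small RNA libraries were prepared and an Illumina HiSeq was used. As tools the submitters' processing notes list bcl2fastq and cutadapt, and as builds mm10 and GRCm38.p5. The sources used here give no aligner, counting tool or miRNA annotation, nor how reads of several loci or close relatives were assigned. The deposited values were taken as RPM, inferred from the values: in each library those up to 100 reads were whole multiples of 1 step within 0.1 reads. The step gave the depth, and 1 RPM stands for 9.08 to 98.1 reads. Higher values did not show whole reads, so no count model was used.

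A miRNA was tested with at least 1 RPM in at least 4 libraries, so the 4 libraries of 1 group could suffice. Of those tested, 170 reached 1 RPM in at least 1 library of each group and 1 in ob/ob libraries only, and 77 were not tested. limma 3.58.1 (R 4.3.3, trend and robust) was run on log2(RPM + 0.5), on log2 arm ratios, and on all 15 libraries for the difference between ages. Median-ratio rescaling used the 120 miRNAs above 0 in every library whose mean reached 5 RPM. A linear correction per library for the GC content of the mature strand was fitted on rescaled values. Library sums and depths had exact permutation tests. Scripts were tested on simulated data.

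Of the 248 miRNAs, 218 matched a RefSeq mature sequence (GRCm38.p6). Positions are 1-based, and host genes are from GENCODE vM21 on the same assembly. Named miRNAs are those called on both scales, up to 4 tested members per list by smallest p, a fixed group, the 5 most abundant, shifted hairpins and those called between ages. Members and lists were chosen with earlier results of these data known.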

Additional observations from a re-analysis of the deposited data

Results flagged for a closer look

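In 15 of 188 groups of 4 values, 1 library lay far from the other 3, by Dixon's rule on the gap to the nearest library over the range, where chance flags about 1 group in 20. wt replicate 1, the library with the low listed sum, was the odd library for miR-10a-5p (13356 RPM against 36906 to 40671), miR-126a-3p (747 against 3460.4 to 3779.8), miR-199a-3p (259.9 against 1097 to 1137), miR-21a-5p (13315 against 19190.0 to 20004) and miR-30e-5p (1397 against 2789.9 to 3007). Those RPM values are as deposited. After rescaling, wt replicate 1 stayed the lowest wt library for miR-10a-5p, miR-126a-3p and miR-199a-3p. For miR-21a-5p it became the highest (23055.5 against 16901.3 to 18049.7). For miR-30e-5p the rescaled wt values given above lay close together. wt replicate 1 was also the odd library for the log2 arm ratios of miR-125b-2 (5.07 against 3.93 to 4.0) and miR-125b-1 (4.91 against 3.77 to 3.94). ob/ob replicate 1 lay towards wt for miR-141-3p (27.9 RPM against 63.9 to 68.5), miR-142a-3p (0.159 against 17.1 to 18.6), miR-30e-5p (3685 against 4355 to 4444), and the log2 arm ratios of miR-340 (5.61 against 6.51 to 6.68) and miR-423 (-0.0115 against -0.81 to -0.78). ob/ob replicate 4 stood apart for miR-146b-5p (495.0 RPM against 205 to 249) and the arm ratio of miR-195a (5.20 against 5.83 to 5.93), and wt replicate 3 for miR-142a-3p (0.0844 RPM against 0). As deposited, the ob/ob effect differed between 14 and 9 weeks, by the test of the difference, for miR-188-5p (2.80), miR-138-5p (1.96) and miR-19a-3p (1.97). After rescaling 0 of 178 miRNAs passed that test. Without wt replicate 1, wt replicate 4, ob/ob replicate 2 or ob/ob replicate 3 of 14 weeks no miRNA passed it as deposited.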

How the results depend on the processing

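As deposited, the 26 calls became 48 with median-ratio rescaling or division by the listed sum, 17 where the mean had to reach 10 RPM, 1 in lane 1 alone and 51 in lane 2 alone. Leaving out each library in turn gave 12 to 48, lowest without ob/ob replicate 3 (12), ob/ob replicate 2 (14) or wt replicate 3 (15) and highest without wt replicate 1 (48). After rescaling, the 48 calls became 0 in lane 1 alone and 27 to 49 without 1 library, namely 29 without wt replicate 3, 31 without wt replicate 4, 27 without ob/ob replicate 2 and 28 without ob/ob replicate 3. The 24 calls on both scales became 0 in lane 1, 51 in lane 2 (21 shared with the 24) and 10 to 43 without 1 library: 43 without wt replicate 1, 13 without wt replicate 3, 15 without wt replicate 4, 11, 10 and 15 without ob/ob replicate 2, 3 and 4. The 15 arm ratio calls became 0 in lane 1 and 8 to 15 without 1 library. The 3 differences between ages became 0 after rescaling and 0 to 3 without 1 library (1 without wt replicate 3). The cause of these changes was not tested, apart from fewer libraries or miRNAs entering some fits.

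With the replicate number as a block, the counts were 22 as deposited, 36 rescaled, 15 on both scales (all among the 24), 21 arm ratios and 2 differences between ages. Deviations of libraries with the same number correlated from -0.29 to 0.37 over 131 miRNAs, so the numbers were not taken to pair samples. The sum of listed values was 25603 RPM higher in ob/ob and without wt replicate 1 the difference turned to -21184 RPM (exact permutation p = 0.400), with a range of -21184 to 47630 over libraries left out. The depth difference of 39.2 M reads was 27.6 to 45.6 M reads without 1 library (exact permutation p = 0.0571 each time, the smallest that 3 against 4 allows). No named miRNA that was called changed direction under any alternative run. Depth and genotype do not overlap, and values under 1 RPM rest on few reads in wt replicate 1.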

Other observations

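ob/ob replicate 1 was the ob/ob library nearest to the wt mean for 18 of the 24 miRNAs called on both scales, against 1 for replicate 2, 1 for replicate 3 and 4 for replicate 4 (log2 values as deposited). Without it, 28 miRNAs were called on both scales, 19 of them among the 24. Among wt libraries, replicate 2 was nearest to the ob/ob mean for 11 of the 24 miRNAs, replicate 4 for 8, replicate 1 for 5 and replicate 3 for 0. The wt counts are also as deposited, where wt replicate 1 had the low listed sum. The same counts over all tested miRNAs were not made, so whether they are particular to the 24 was not tested.

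Some miRNAs were listed at 0 in single libraries beside high values elsewhere. miR-126a-3p was at 0 in ob/ob replicate 2, whose miR-126a-5p arm was at 50458 RPM. miR-151-3p was at 1401 RPM in wt replicate 4, at 3.59 and 4.09 RPM in wt replicates 2 and 3, and at 0 in the other 5 libraries. miR-20a-5p and miR-92a-1-5p were listed above 0 in wt replicate 1 and ob/ob replicate 4 alone, miR-92a-1-5p at 16.6 and 22.3 RPM. The deviations of these 2 libraries from their group means correlated with r of 0.506 over 131 miRNAs, a description across miRNAs and the highest of the 16 pairs of a wt and an ob/ob library.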
